A study of Mus musculus with 10 samples.

Results

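Ribosome footprints from 3 Wdr4-targeted conditions were compared with footprints from 2 controls across both deposited tables of the series, to find changes that every targeted library shared against both controls. All 10 mouse libraries of the series entered, as 5 footprint libraries and the 5 input RNA libraries of the same conditions. The targeted conditions were labelled sgWdr4-1, sgWdr4-2 and Wdr4cKO, and the controls WT and Wdr4ff. WT, sgWdr4-1 and sgWdr4-2 came from iBMDM, immortalized macrophages derived from bone marrow; the lines were described as monoclonal, and the guides were delivered by lentivirus with puromycin selection. Whether the WT line received a control virus or puromycin is not given. Wdr4ff and Wdr4cKO were labelled as F4/80-positive macrophages of tumours (TAM), obtained by flow cytometry from orthotopic liver tumours of Hepa1-6 hepatoma cells, in floxed mice and in mice with a myeloid-specific deletion of Wdr4. The sources used here give neither the Cre driver and the age of the mice nor the number of animals behind each TAM library. Each condition had 1 footprint library and 1 input library of poly(A)-selected RNA.

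Ribosome profiling sequences the stretches of mRNA that ribosomes shield from nuclease, and the input library measures the mRNA itself. Values were TPM, read density per gene length set relative to the library total, analysed as log2(TPM + 1). Translation efficiency was the log2 footprint value minus the log2 input value of the same condition. WDR4 is the non-catalytic partner of METTL1 in the enzyme that places 7-methylguanosine in the variable loop of a subset of tRNAs; loss of the mark is known to destabilise some of those tRNAs and to slow ribosomes at the codons they read. The comparison asked which mRNAs carried more or fewer ribosomes when Wdr4 was targeted.

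The targeted gene was checked first. Wdr4 footprints measured 13.3 TPM in WT, 8.51 in Wdr4ff, 24.3 in sgWdr4-1, 26.9 in sgWdr4-2 and 17.7 in Wdr4cKO. They were thus higher in every library labelled as targeted than in either control, and the groups did not overlap. Wdr4 input was 44.6 TPM in WT, 39.8 in Wdr4ff, 31.3 in sgWdr4-1, 44.5 in sgWdr4-2 and 20.9 in Wdr4cKO, so it was lower than both controls in 2 of the 3 targeted libraries. The footprint levels thus go against the labels, and each direction below is a direction between libraries as labelled. Mettl1 footprints overlapped between the groups, at 98.2 and 69.8 TPM in WT and Wdr4ff against 114, 82.3 and 48.4 in sgWdr4-1, sgWdr4-2 and Wdr4cKO.

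The labelled cell type was not borne out by its markers. Of 25 macrophage markers, 20 stayed below 1 TPM throughout the input libraries and 2 reached 5 TPM in all of them. Of 14 fibroblast and stellate cell markers, 6 stayed below 1 TPM and 8 reached 5 TPM, so that list was borne out only in part. Of the 25 macrophage markers, 4 were listed at 0 in all 10 libraries, among them Adgre1, the gene of F4/80. Summed input TPM of the macrophage list was 530 to 592 in the controls and 566 to 691 in the targeted libraries, of which Lgals3, a galectin that other cell types also make, gave 503 to 569 and 546 to 669. The fibroblast list summed to 6549 to 6626 against 6670 to 8962. Of this, Acta2 gave 2397 to 2483 against 2462 to 3785, and Vim 2116 to 2193 against 2165 to 2636. The hepatocyte list summed to at most 115 against at most 169, mostly from Apoa2 (90.2 to 105 against 100.02 to 139.5). The part that cell makeup had in the results below was not tested, and in such bulk libraries fewer cells of a type and less RNA per cell cannot be told apart.

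The footprint libraries differed far more than the input libraries did. Over the 7453 genes with a mean footprint and a mean input TPM of at least 5, the robust SD of the log2 footprint difference was 0.39 between WT and Wdr4ff. It was 0.46 between sgWdr4-2 and Wdr4cKO, and 0.92 to 1.20 between sgWdr4-1 and each of the other 4 libraries. Mitochondrially encoded mRNAs made up 0.781% of the sgWdr4-1 footprints and 9.94% to 14.6% of the footprints of the other 4 libraries. Input libraries were grouped in another way: WT, Wdr4ff and sgWdr4-2 differed by 0.096 to 0.13, and sgWdr4-1 and Wdr4cKO by 0.19, while the other pairings differed by 0.22 to 0.30. Results are therefore given with and without the library labelled sgWdr4-1. Levels are set side by side across 2 tables that were normalised separately, which is a description; the tests used a term for the table.

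**Figure D1:**
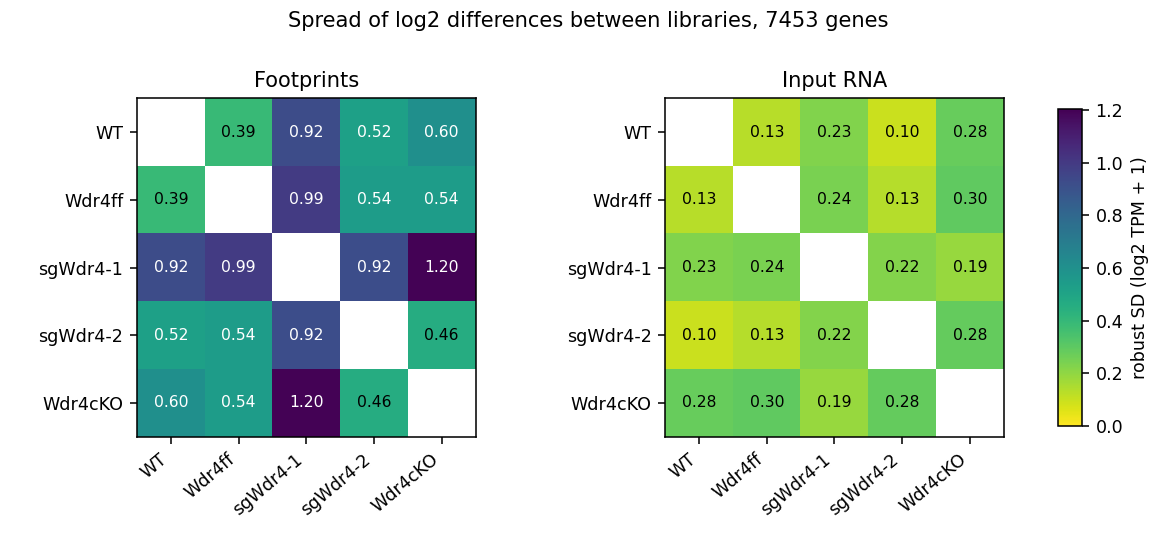
Robust SD of the log2 difference between each pair of libraries over 7453 genes, for footprints (left) and input RNA (right); darker cells mark a wider spread. The sgWdr4-1 footprints stand 0.92 to 1.20 from every other library, while WT and Wdr4ff, and sgWdr4-2 and Wdr4cKO, are nearest to each other.

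Genes were called shared when the lowest targeted library lay at least 1 on the log2 scale (2-fold) above the highest control, or the highest targeted library at least 1 below the lowest control, so that all 6 pairings of a targeted library with a control moved by that much. For footprints 4 genes were shared higher (0.0537% of 7453) and 15 lower (0.201%). For translation efficiency 13 were shared higher (0.174%) and 38 lower (0.51%). With any gap between the groups, footprints were higher for 489 genes (6.56%) and lower for 925 (12.4%), and translation efficiency was higher for 651 (8.73%) and lower for 1255 (16.8%). Lower values outnumbered higher ones in both measures, but this split depended on the scaling. The median translation efficiency change over all genes was -0.0020 for sgWdr4-1, -0.043 for sgWdr4-2 and -0.27 for Wdr4cKO, and after all libraries were set to the same median, efficiency was higher without overlap for 1048 genes and lower for 907, and footprints were higher for 750 and lower for 679. With 2-fold gaps the rescaled efficiency was shared higher for 19 genes and lower for 25. All 13 genes first found higher remained, as did 25 of the 38 lower ones. In footprints 3 of 4 higher genes remained, all but Mri1, and 10 of 15 lower ones, all but Abhd11, Parp6, Ppip5k1, R3hdm2 and Zfp36l1. The groups were 3 against 2, for which an exact permutation test of a single gene cannot give a p below 0.1, so these counts are descriptions.

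The test across all genes called none. limma with a term for the table called 0 of 7453 footprint changes at a Benjamini-Hochberg adjusted p under 0.05, with a lowest adjusted p of 0.9996 and 199 genes at an unadjusted p under 0.05. For translation efficiency it also called 0, with a lowest adjusted p of 0.257 and 564 genes under the unadjusted threshold, of which 460 were lower. The fit had 2 residual degrees of freedom. Since nothing says that libraries came from separate cultures, p-values measure only the spread between these libraries.

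Leaving out sgWdr4-1 changed this outcome. With sgWdr4-2 and Wdr4cKO against WT and Wdr4ff, limma called 329 of 7304 genes higher in footprints (4.5%) and 454 lower (6.22%), and 6 higher (0.0821%) and 18 lower (0.246%) in translation efficiency. That fit had 1 residual degree of freedom, and limma's prior degrees of freedom were infinite, so each gene took the spread common to genes of its level and not its own. Of the 329 genes called higher, 98 lay above both controls in all 3 targeted libraries, and of the 454 called lower, 235 lay below both in all 3. Called genes outside the 7453 were left out of the 98 and the 235. Without sgWdr4-2 the calls were 13 for footprints and 78 for translation efficiency, and without Wdr4cKO they were 2 and 6.

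The 4 genes with shared higher footprints were Add3, Mis12, Mri1 and Nsdhl, and the same 4 were shared higher in translation efficiency. Add3, an adducin that links spectrin to actin under the plasma membrane, measured 5.32 TPM in WT and 5.55 in Wdr4ff against 59.0 in sgWdr4-1, 19.1 in sgWdr4-2 and 38.1 in Wdr4cKO. Every targeted library was thus more than 3 times either control, and sgWdr4-2 was the lowest of the targeted libraries. Its input stayed between 9.11 and 14.4 TPM, and its translation efficiency was 2.29 ± 0.41 (SE) higher on the log2 scale, with a limma adjusted p of 0.257.

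Mis12, a kinetochore protein that joins centromeric chromatin to the microtubule-binding complex, measured 14.5 and 8.88 TPM in WT and Wdr4ff. It measured 65.9 in sgWdr4-1, 53.6 in sgWdr4-2 and 40.5 in Wdr4cKO, against an input of 39.7 to 46.9 in all 5 libraries. The groups lay far apart in footprints and overlapped in input. Of the 40 mitosis and kinetochore genes tested, Mis12 was the one past the shared rule. With any gap, 3 were higher and 4 lower in translation efficiency, shares not above the 8.73% and 16.8% of all genes.

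Mri1, an isomerase of the methionine salvage pathway, had 7.69 and 6.53 TPM in the controls and 17.6, 19.0 and 19.1 TPM in sgWdr4-1, sgWdr4-2 and Wdr4cKO. Nsdhl, a sterol dehydrogenase of cholesterol synthesis, had 8.46 and 6.54 TPM in WT and Wdr4ff and 31.4, 23.5 and 19.2 TPM in the targeted libraries in the same order. The targeted libraries were nearly level for Mri1 and more spread for Nsdhl, and in both genes clear of the controls. Nsdhl input was not higher with its footprints: it was 25.8 and 26.3 TPM in the controls and 17.6, 23.7 and 14.3 TPM in the targeted libraries, so the translation efficiency difference was the wider one, at 2.05 ± 0.42 (SE; limma adjusted p 0.346).

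Shared lower footprints were found for Slc38a6, Vldlr, Rnaset2b, Atp8b2, Lmbr1l, Ppip5k1, Ppp4r1, Apc, Arhgef25, Zfp36l1, Npr2, R3hdm2, Parp6, Abhd11 and AU021092. Slc38a6, a member of the amino acid transporter family SLC38, had the widest gap. It measured 20.2 TPM in WT and 21.8 in Wdr4ff against 5.68 in sgWdr4-1, 3.99 in sgWdr4-2 and 4.603 in Wdr4cKO, with an input of 47.3 to 58.7 TPM throughout. The 3 targeted libraries lay close to one another, and the highest of them was 1.67 below the nearest control on the log2 scale.

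Vldlr, a lipoprotein receptor that is also a target of the stress factor ATF4, measured 26.4 and 24.7 footprint TPM in WT and Wdr4ff and 8.72, 7.31 and 5.90 in sgWdr4-1, sgWdr4-2 and Wdr4cKO. Its input moved in another way, at 2.78 and 1.83 TPM in the controls and 9.67, 1.99 and 29.3 in the targeted libraries. Fewer footprints thus stood beside more mRNA in sgWdr4-1 and Wdr4cKO and beside a level within the control range in sgWdr4-2. In translation efficiency the difference was -3.53 ± 0.71 (SE; limma adjusted p 0.346).

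Zfp36l1, an RNA-binding protein that directs mRNAs with AU-rich elements to decay, measured 37.4 and 44.5 footprint TPM in WT and Wdr4ff against 14.8, 16.1 and 14.9 in sgWdr4-1, sgWdr4-2 and Wdr4cKO. Ppp4r1, a regulatory subunit of protein phosphatase 4, measured 54.8 and 55.7 TPM in the controls against 23.1, 20.2 and 11.9 TPM. Npr2, the receptor for C-type natriuretic peptide, measured 18.0 and 18.4 TPM against 5.76, 7.73 and 5.16 TPM. The rule required the gap between the groups in all 3 genes, and their controls differed from each other by less than the targeted libraries did from them. Zfp36l1 no longer passed the rule after all libraries were set to the same median. Atp8b2, a phospholipid flippase, was lower in every targeted library (2.86, 5.36 and 3.34 TPM) than in WT (14.2) and Wdr4ff (27.4), although its controls were nearly 2-fold apart.

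Rnaset2b measured 68.5 and 108 TPM in the controls, 27.4 in sgWdr4-1 and 0.002 and 0.022 TPM in sgWdr4-2 and Wdr4cKO, with an input of 49.95 to 65.5 TPM in every library. It has a near-identical copy in the genome, Rnaset2a, and how reads shared by copies were assigned is not given, so this value is uncertain. The remaining genes with shared lower footprints include Apc, the scaffold that marks beta-catenin for degradation, at 10.2 and 9.67 TPM in WT and Wdr4ff and 3.67, 2.81 and 3.44 TPM in sgWdr4-1, sgWdr4-2 and Wdr4cKO.

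**Figure D2:**
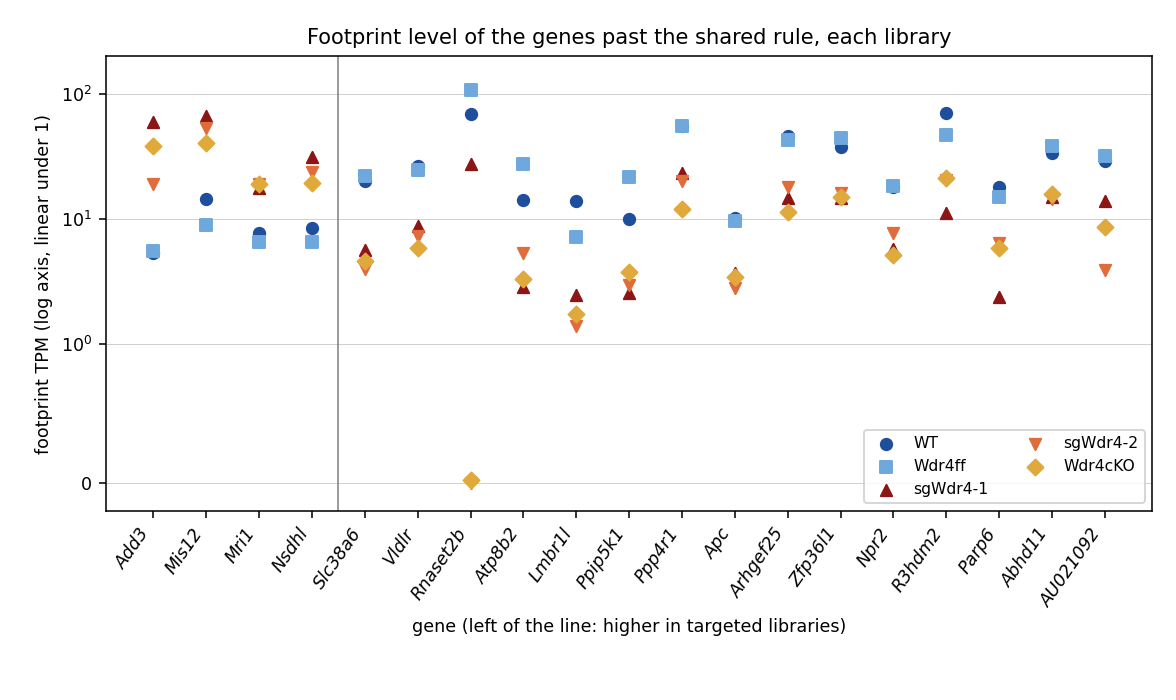
Footprint TPM of the 4 genes with shared higher footprints (left of the line) and the 15 with shared lower footprints, one point per library; the axis is logarithmic above 1 TPM and linear below. In each gene all 3 targeted libraries lie at least 2-fold (on TPM + 1) from both controls, as the rule demands, with Rnaset2b near 0 in sgWdr4-2 and Wdr4cKO.

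Among the 38 genes with shared lower translation efficiency, 11 were also shared lower in footprints, and 16 had an input that was higher in all 3 targeted libraries than in both controls. Over all genes, input was higher without overlap for 1239 (16.6%) and lower for 627 (8.41%). Of the 1255 genes lower in translation efficiency with any gap, 365 had higher input, and of the 651 higher ones 176 had lower input, so part of each set pairs opposite differences in the 2 kinds of library. Across the 7453 genes the footprint change and the input change of one pair had a Pearson r of -0.024 for sgWdr4-1 against WT, 0.013 for sgWdr4-2 against WT and -0.27 for Wdr4cKO against Wdr4ff. Input enters translation efficiency with a negative sign, which these values describe only in part.

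Plau, the urokinase plasminogen activator, had the widest gap of all in lower translation efficiency, at 1.95 on the log2 scale. Its footprints were 106 and 129 TPM in WT and Wdr4ff and 71.8, 26.2 and 37.3 in sgWdr4-1, sgWdr4-2 and Wdr4cKO. Its input was 14.4 and 17.9 TPM in the controls and 40.1, 15.8 and 52.1 TPM in the targeted libraries. All 3 targeted libraries had fewer footprints, and in sgWdr4-1 and Wdr4cKO this stood beside more mRNA; the efficiency difference was -2.56 ± 0.36 (SE), with a limma adjusted p of 0.257.

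Itga5, the fibronectin-binding integrin alpha 5, measured 369 and 483 footprint TPM in WT and Wdr4ff against 203, 112 and 169.8 in sgWdr4-1, sgWdr4-2 and Wdr4cKO. Sema7a, a membrane-anchored semaphorin that binds integrins, measured 64.1 and 92.9 TPM against 41.9, 9.31 and 20.1. Chst11, a chondroitin sulfotransferase, measured 34.5 and 30.4 TPM against 17.2, 10.6 and 15.8. The groups were separate in footprints for all 3 genes, and input was above both controls in sgWdr4-1 and Wdr4cKO.

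Fth1, the ferritin heavy chain, whose translation is restrained by iron regulatory proteins, was also among the genes with shared lower efficiency. Its footprints were 1346 and 1393 TPM in WT and Wdr4ff, and 717, 519 and 487 in sgWdr4-1, sgWdr4-2 and Wdr4cKO. Input was 2269 and 2303 TPM in the controls and 2821, 2254 and 3130 in the targeted libraries. Footprints of every targeted library were thus far below both controls, at an input that was near the controls in sgWdr4-2 and higher in the others. Fth1 falls outside the rule for named genes and was chosen after its values were seen.

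Beside Add3, Mis12, Mri1 and Nsdhl, genes with shared higher translation efficiency included Acat2, Idi1, Mvd, Aqp1, Sap30, Zfp932, Rabl2 and Gm14305. Aqp1, a water channel, had 3.52 and 5.50 footprint TPM in WT and Wdr4ff and 9.08, 14.1 and 25.95 TPM in sgWdr4-1, sgWdr4-2 and Wdr4cKO. Rabl2 passed on its input alone: input was 35.4 and 59.4 TPM in the controls and 16.2, 15.4 and 14.98 in the targeted libraries, while its footprints lay between 37.4 and 45.8 TPM in all 5.

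Cytosolic ribosomal proteins, the protein part of the ribosome, had more footprints per mRNA in the targeted libraries. Of 73 cytosolic ribosomal protein genes tested, 50 were higher in translation efficiency in all 3 targeted libraries than in both controls and 1, Rpl24, was lower, against 8.73% and 16.8% of all genes. Their median change was 0.56, against -0.11 over all genes. By pair it was 0.74 for sgWdr4-1, 0.50 for sgWdr4-2 and 0.52 for Wdr4cKO, and no member passed the 2-fold rule. In footprints alone 38 of the 73 were higher and 1 lower, against 6.56% and 12.4% of all genes. Rescaled to the same median, footprints were higher for 37 and lower for 1, against 10.1% and 9.11% of all genes. After rescaling to the same median, 48 were higher and 1 lower in efficiency, against 14.1% and 12.2% of all genes.

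Rps19, a protein of the small subunit, measured 1342 and 1358 footprint TPM in WT and Wdr4ff against 2089.5, 2187 and 2078 in sgWdr4-1, sgWdr4-2 and Wdr4cKO. Rpl26, a protein of the large subunit, measured 1465 and 1454 TPM against 2547, 2079 and 2094. Rpl24 went the other way, at 1044 and 1031 TPM against 526, 608 and 566. Targeted libraries were thus above both controls for Rps19 and Rpl26 and below both for Rpl24, another protein of the large subunit.

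The next counts in efficiency stand against 8.73% higher and 16.8% lower over all genes. Translation initiation and elongation factors were higher for 18 of 49 genes and lower for 0, with a median of 0.37. After rescaling to the same median 28 of the 49 were higher, while the share of all genes that were higher rose to 14.1%. Ribosome biogenesis factors were higher for 19 of 46 and lower for 0, with a median of 0.46. Mitochondrial ribosomal proteins were higher for 20 of 78 and lower for 2, with a median of 0.19. The mitochondrial list had similar medians in the 3 pairs, at 0.28, 0.22 and 0.13, but in the other two sgWdr4-1 stood apart. Biogenesis factors had a median of 1.33 in sgWdr4-1 against 0.09 in sgWdr4-2 and 0.12 in Wdr4cKO, and without sgWdr4-1 their median was 0.11. Initiation and elongation factors had medians of 0.85, 0.19 and 0.05 in the same order, and 0.16 without sgWdr4-1. Npm1, the abundant nucleolar chaperone of ribosome assembly, measured 1628 and 1559 footprint TPM in WT and Wdr4ff and 3593, 3030 and 1942 in sgWdr4-1, sgWdr4-2 and Wdr4cKO. Cytosolic aminoacyl-tRNA synthetases, which charge tRNAs with amino acids, were higher without overlap for 3 of 23 and lower for 1. Their medians were of opposite sign, at 1.13 in sgWdr4-1, -0.09 in sgWdr4-2 and -0.69 in Wdr4cKO.

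Cholesterol synthesis was the list with the most genes past the 2-fold rule in higher translation efficiency, 4 of 23: Nsdhl, Acat2, Idi1 and Mvd. In all, 13 of the 23 were higher without overlap and 1, Ebp, was lower, against 8.73% and 16.8% of all genes. After rescaling to the same median 13 were still higher, against 14.1% of all genes, and 0 were lower. The median change was 0.63, with 0.47, 0.56 and 1.08 in sgWdr4-1, sgWdr4-2 and Wdr4cKO. The pathway turns acetyl-CoA into mevalonate, then into isoprenoids and squalene, and finally into sterols, and its genes are known targets of the transcription factor SREBP2. In footprints 9 of the 23 were higher without overlap and 0 lower, against 6.56% and 12.4% of all genes. Input was lower for 7 of the 23 and higher for 0, against 8.41% and 16.6% of all genes, and its median change was -0.23 in sgWdr4-1, 0.0050 in sgWdr4-2 and -0.53 in Wdr4cKO.

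Higher values were found at several steps of the pathway. Acat2, the cytosolic thiolase at its start, measured 44.7 and 41.3 footprint TPM in WT and Wdr4ff against 84.1, 122 and 81.4 in sgWdr4-1, sgWdr4-2 and Wdr4cKO. Mvd, which makes isopentenyl pyrophosphate, measured 16.0 and 13.7 TPM against 51.8, 37.5 and 24.3. Idi1, which isomerises it, measured 119 and 102 TPM against 167, 263 and 182.

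In these 3 genes each targeted library exceeded both controls in footprints, by a smaller margin than in translation efficiency. Cyp51, which demethylates lanosterol, measured 164 and 187.7 TPM in WT and Wdr4ff and 187.5, 256 and 387 in sgWdr4-1, sgWdr4-2 and Wdr4cKO, so its footprints overlapped. Insig1, which retains the SREBP escort protein in the ER, was lower than both controls in sgWdr4-1 (39.0 TPM) and higher than both in sgWdr4-2 (149.8 TPM) and Wdr4cKO (186 TPM), the controls being at 103 and 116 TPM. Without sgWdr4-1, limma called 10 of the 23 higher in footprints and none lower, against 4.5% and 6.22% of all genes. The limma adjusted p of these 10 ran from 3.58e-05 for Acat2 to 0.0352 for Insig1, against at least 0.9996 with all 5 libraries.

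Of the 23 sterol genes, 16 had a promoter window in RefSeq (build GRCm38.p6), and 15 of these (93.8%) held the letters CCAAT on either strand in the 250 bases before the start, against 41.3% of 5993 tested genes and 37.5% of 27018 genes with a window. Of the 15 sterol genes with the letters, 8 were higher and 1 lower in translation efficiency without overlap. The letters were also in 16 of 21 genes of endoplasmic reticulum folding with a window (76.2%), of which 15 were lower and 0 higher. Among all 2476 tested genes with the letters, 203 were higher and 396 lower. Over all genes tested the shares were 8.73% higher and 16.8% lower. CCAAT is the core that the factor NF-Y binds, a known partner of SREBP2 at sterol promoters. A match is a description of the sequence and not a site. The windows below show the box nearest to the start, or the upstream of 2 where that one lies at the window's edge, in 3 of the genes past the 2-fold rule, with CCAAT or its reverse complement ATTGG in capitals. Nsdhl lies at chrX:72918486-72918520 on the plus strand, Mvd at chr8:122443430-122443464 on the minus strand and Idi1 at chr13:8885546-8885580 on the plus strand.
Nsdhl: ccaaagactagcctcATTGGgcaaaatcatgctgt
Mvd: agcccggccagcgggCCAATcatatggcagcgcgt
Idi1: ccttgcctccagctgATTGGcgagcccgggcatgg
Acat2, the fourth of them, had a window without the letters. The motif was searched after the values had been seen.

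**Figure D3:**
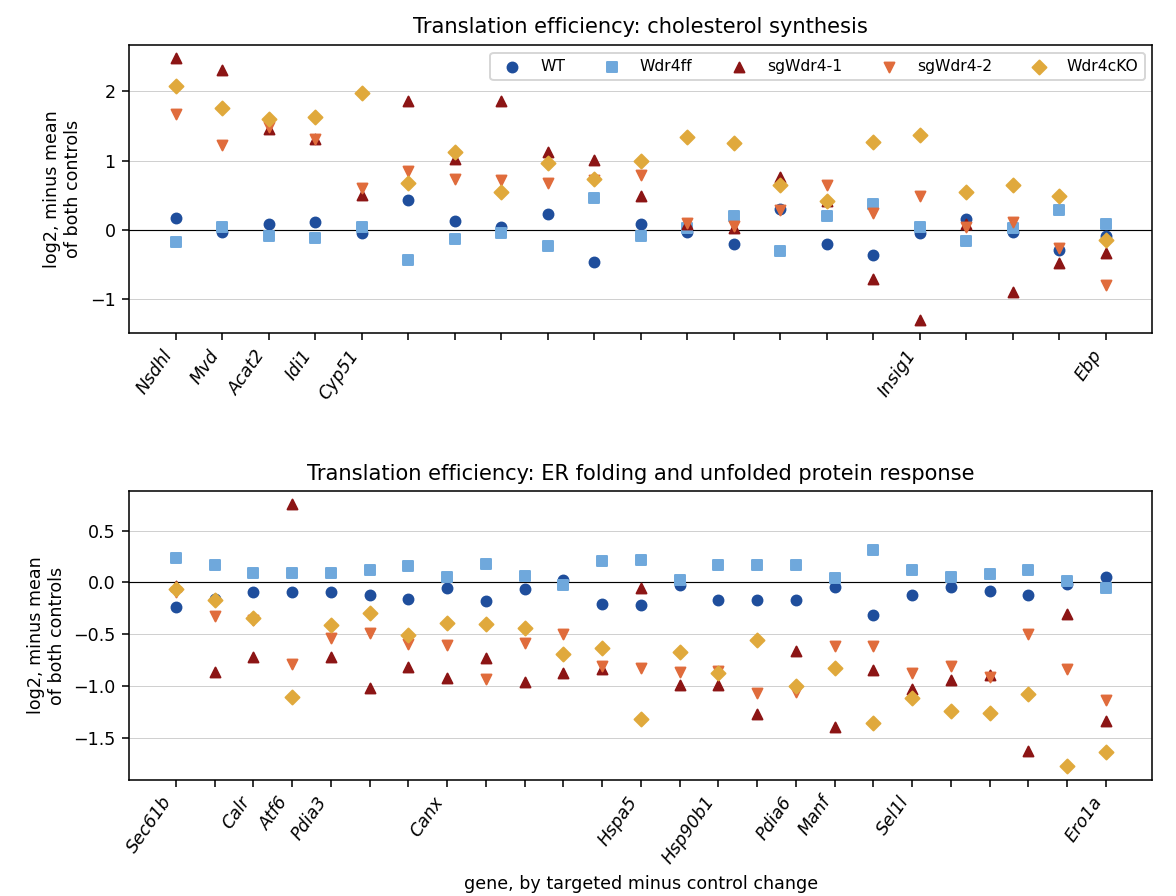
Translation efficiency of genes of cholesterol synthesis (top, 21 of the 23 tested) and of ER folding and the unfolded protein response (bottom, 25 genes), in log2, minus the mean of both controls; one point per library, genes ordered by the change, with names for those named in the text. Targeted points lie above both controls in 13 sterol genes and below both in 22 ER genes (13 after all libraries were set to the same median); sgWdr4-1 departs from the other targeted libraries at Insig1 and Atf6.

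Genes of folding in the endoplasmic reticulum (ER) and of the unfolded protein response went the other way. These chaperones, disulfide isomerases and translocon subunits handle proteins that enter the secretory pathway. Of the 25 genes, all of them tested, 22 were lower in translation efficiency in every targeted library than in both controls and 0 were higher, against 16.8% and 8.73% of all genes. The median change was -0.79, with -0.81, -0.60 and -0.84 in sgWdr4-1, sgWdr4-2 and Wdr4cKO. In footprints 16 were lower and 0 higher, against 12.4% and 6.56% of all genes. Input was higher for 4 of 25, near the 16.6% of all genes, and lower for 0. The 3 genes whose efficiency overlapped between the groups were Hspa5, Atf6 and Sec61b. After all libraries were set to the same median, 13 of the 25 were lower in efficiency and 6 in footprints, and still 0 were higher, against 12.2% and 9.11% of all genes lower.

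Ero1a, the oxidase that feeds the disulfide isomerases, was the one gene of the list past the 2-fold rule. It measured 133 and 131 footprint TPM in WT and Wdr4ff against 71.8, 61.6 and 79.6 in sgWdr4-1, sgWdr4-2 and Wdr4cKO, and its input was 62.4 and 66.6 TPM against 89.8, 66.8 and 123. Sel1l, an adaptor of ER-associated degradation, measured 47.5 and 56.4 TPM against 30.8, 27.5 and 35.8. Manf, a secreted ER stress protein, measured 927 and 1052 TPM against 428, 623 and 733.

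The 2 genes Ero1a and Sel1l had similar levels in all targeted libraries, whereas Manf was lowest in sgWdr4-1. The chaperones Hsp90b1 and Calr were among the most abundant footprints of the list. Hsp90b1 measured 2583 and 3370 TPM in WT and Wdr4ff against 1509.7, 1564 and 2185 in sgWdr4-1, sgWdr4-2 and Wdr4cKO. Calr measured 3318 and 4230.1 TPM against 2355, 2708 and 3124, which is separate from the controls by 0.09 on the log2 scale. Hspa5, the ER Hsp70, was at 1605 TPM in sgWdr4-1, above both controls (1101 and 1495), and at 681 and 909 TPM in sgWdr4-2 and Wdr4cKO, below both. Without sgWdr4-1, limma called 8 of the 25 lower in footprints and 0 higher, against 6.22% and 4.5% of all genes.

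The ER stress element, a promoter motif recognised by ATF6 together with NF-Y, was searched as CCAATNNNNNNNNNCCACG on both strands in the same 250 bases. It was present in 8 of the 21 ER genes with a window (38.1%), in 11 of 5993 tested genes (0.184%) and in 35 of 27018 genes with a window (0.13%). Of the 11 tested genes that held it, 9 were lower in translation efficiency in all 3 targeted libraries and 0 were higher. The shares over all genes were 16.8% and 8.73%. Among the 11 were the 8 ER genes, of which 7 were lower, beside 22 of 25 in the whole ER list. After rescaling to the same median, 6 of the 11 and 4 of the 8 were lower, beside 13 of 25 in the list. The ER genes with the motif were thus lower about as often as their list. The motif contains a CCAAT box, the list was chosen for its function, and a match is neither a site nor a cause. For this promoter motif and for the CCAAT box, input of the genes that held them was not counted. A link of either motif to translation efficiency was not tested. The windows below show it in 5 of the 8 genes with the motif in capitals, read in the direction of the gene; the copy in Calr lies on the opposite strand. They lie on GRCm38.p6 at chr10:86705623-86705671 (minus) for Hsp90b1, chr8:84847060-84847108 (minus) for Calr, chr11:50325785-50325833 (minus) for Canx, chr12:17266476-17266524 (plus) for Pdia6 and chr2:34772010-34772058 (plus) for Hspa5.
Hsp90b1: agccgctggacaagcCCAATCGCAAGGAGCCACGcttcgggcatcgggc
Calr: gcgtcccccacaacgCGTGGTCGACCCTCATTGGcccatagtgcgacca
Canx: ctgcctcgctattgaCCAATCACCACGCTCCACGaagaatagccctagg
Pdia6: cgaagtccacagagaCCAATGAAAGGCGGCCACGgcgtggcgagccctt
Hspa5: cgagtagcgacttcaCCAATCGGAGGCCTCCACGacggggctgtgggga
Hspa5 is the one whose efficiency overlapped between the groups.

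Lists of matrix, proteolysis, adhesion, lysosome and antigen presentation genes were examined next. Their counts in translation efficiency stand against 8.73% higher and 16.8% lower over all genes, or 14.1% and 12.2% after rescaling to the same median. Of 35 extracellular matrix and collagen-processing genes tested, 20 were lower in translation efficiency without overlap and 0 higher, with a median of -0.81 and of -0.65, -0.56 and -0.96 in sgWdr4-1, sgWdr4-2 and Wdr4cKO. Col5a1, the chain that starts collagen fibrils, passed the 2-fold rule. It measured 52.9 and 44.5 footprint TPM in WT and Wdr4ff against 25.6, 12.3 and 13.5 in sgWdr4-1, sgWdr4-2 and Wdr4cKO, while its input was 57.4 and 52.9 TPM against 90.0, 64.3 and 105. After rescaling to the same median, 16 of the 35 were lower in efficiency and 0 higher. Input of the list was higher without overlap for 12 of 35 genes and lower for 0, against 16.6% and 8.41% of all genes. Of 8 fibroblast markers tested, input was higher for 4 and lower for 0; 3 of the 4, Col1a1, Col1a2 and Col3a1, are also in the matrix list, and the fourth was Tagln.

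Of 14 genes of plasminogen activation and matrix proteolysis, 11 were lower in translation efficiency and 0 higher, with a median of -0.71 and of -0.74, -0.59 and -0.83 in the 3 pairs. Plaur, the urokinase receptor, measured 559 and 779.8 footprint TPM in WT and Wdr4ff against 409, 265 and 374 in sgWdr4-1, sgWdr4-2 and Wdr4cKO. F3, tissue factor, measured 108 and 162 TPM against 92.7, 30.8 and 32.4.

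Both genes were thus lower than both controls in every targeted library, least so in sgWdr4-1. In footprints alone 8 of the 14 were lower, against 12.4% of all genes. After rescaling to the same median 5 were lower in footprints, against 9.11% of all genes, and efficiency was lower for 9. Integrins and focal adhesion genes were lower in efficiency for 7 of 20 and higher for 0, but their median differed between libraries, at 0.07 in sgWdr4-1, -0.48 in sgWdr4-2 and -1.14 in Wdr4cKO. Without sgWdr4-1, 14 of the 20 lay below both controls, against 30.1% of all genes; after rescaling, 6 were lower and 1 higher.

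Lysosomal genes were lower in translation efficiency for 22 of 37 and higher for 0, with a median of -0.54; after rescaling to the same median 12 were lower. In footprints 12 of the 37 were lower, against 12.4% of all genes, and after rescaling 2, a share of 5.41% against 9.11% of all genes. Hexa, a subunit of beta-hexosaminidase, measured 185 and 227 footprint TPM in WT and Wdr4ff against 67.3, 116 and 166 in sgWdr4-1, sgWdr4-2 and Wdr4cKO. Npc1, the lysosomal cholesterol exporter, measured 29.5 and 34.7 TPM against 13.7, 15.4 and 26.1. Genes of MHC class I presentation were lower for 8 of 9 and higher for 0, with a median of -0.60, and after rescaling for 5 and 1; 3 of these genes, Calr, Canx and Pdia3, are also in the ER list.

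H2-K1, a classical heavy chain, measured 149 and 173 TPM in WT and Wdr4ff against 76.6, 82.3 and 116 in sgWdr4-1, sgWdr4-2 and Wdr4cKO. H2-D1 measured 476 and 548 TPM against 236, 268 and 368. The 2 genes kept the groups apart in footprints, with Wdr4cKO nearest to the controls. Input was clearly above both controls in sgWdr4-1 and Wdr4cKO but only slightly in sgWdr4-2. H2-K1 input was 28.3 and 26.9 TPM in WT and Wdr4ff against 44.6, 28.6 and 74.9 in sgWdr4-1, sgWdr4-2 and Wdr4cKO. H2-D1 input was 137 and 123 TPM against 182, 141 and 248 in the same order. Reads of H2 genes can be shared between close copies, which makes these levels uncertain. Interferon response genes were lower in efficiency for 3 of 13 and higher for 1, near the 16.8% and 8.73% of all genes.

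Stress and immediate-early genes separated the targeted libraries from one another. Their efficiency counts stand against the same shares over all genes, 8.73% higher and 16.8% lower, or 14.1% and 12.2% after rescaling to the same median. Integrated stress response genes, the targets of ATF4 and its pathway, were lower in translation efficiency for 12 of 28 and higher for 0, with a median of -0.17 in sgWdr4-1, -0.38 in sgWdr4-2 and -1.50 in Wdr4cKO. Ppp1r15a, which recruits the phosphatase that ends the response, and Vldlr passed the 2-fold rule. Ppp1r15a measured 38.8 and 32.8 footprint TPM in WT and Wdr4ff against 22.2, 12.4 and 8.99 in sgWdr4-1, sgWdr4-2 and Wdr4cKO, with an input of 49.0 and 48.3 TPM against 80.2, 49.8 and 104. After rescaling, 11 of the 28 stress response genes were lower and 2 higher. Immediate-early genes were lower for 7 of 18 and higher for 0, with medians of 0.33, -0.49 and -1.56. In footprints 1 of these 18 was lower, against 12.4% of all genes, and input was higher for 6, against 16.6%.

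Fos, the AP-1 subunit, illustrated the opposite sides of the ratio. Its footprints were 6.81 and 6.56 TPM in WT and Wdr4ff and 8.98, 2.42 and 0.419 in sgWdr4-1, sgWdr4-2 and Wdr4cKO, and its input was 1.60 and 2.04 TPM against 5.39, 2.14 and 14.1. More Fos mRNA in sgWdr4-1 came with more footprints, and in Wdr4cKO with fewer. Ccn2, a matricellular growth factor, was at 4858 footprint TPM in sgWdr4-1, within the control range of 3402 to 5007, and at 1096 and 1530.5 TPM in sgWdr4-2 and Wdr4cKO. Its input was 977 and 1010 TPM in WT and Wdr4ff and 1919, 999 and 3206 in sgWdr4-1, sgWdr4-2 and Wdr4cKO. Its translation efficiency was thus below both controls in all 3 targeted libraries.

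**Figure D4:**
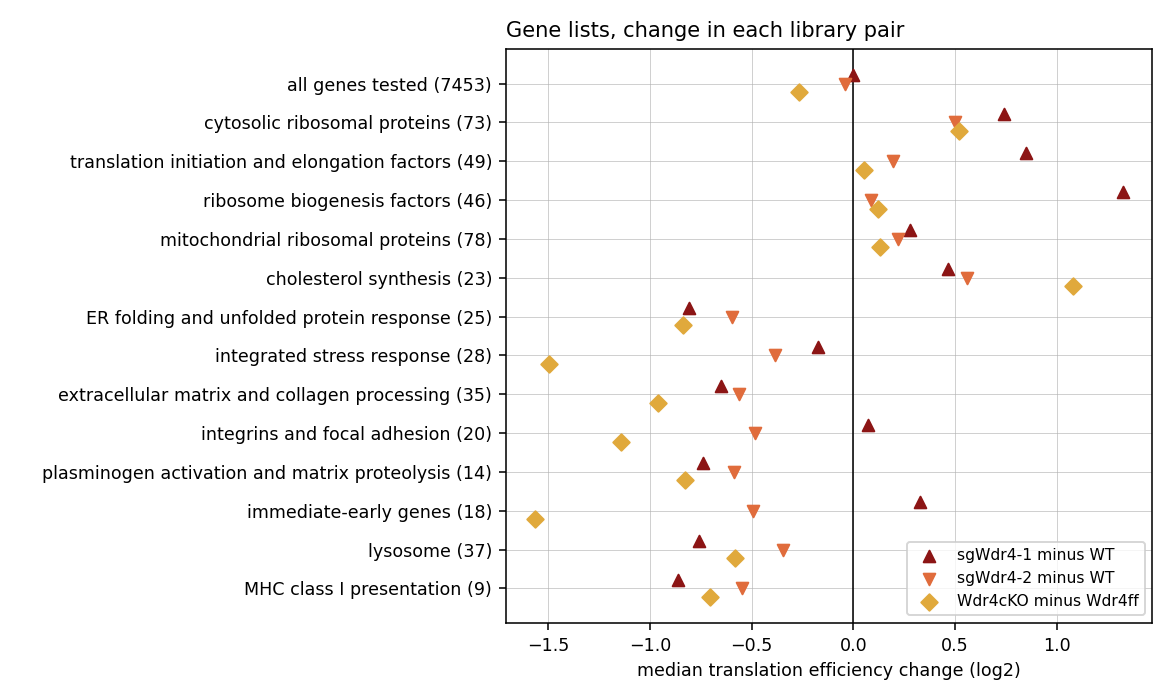
Median translation efficiency change (log2) of 13 gene lists and of all 7453 genes in each targeted library against the control of its own table, with the number of genes tested in brackets. The medians of all 3 pairs are above 0 for ribosomal proteins, translation factors, biogenesis factors, mitochondrial ribosomal proteins and cholesterol synthesis, and below 0 for the ER, stress response, matrix, plasminogen, lysosome and MHC lists; for integrins and immediate-early genes sgWdr4-1 is above 0 and the others below.

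Without sgWdr4-1, limma made footprint calls within several of these lists. Of 35 matrix genes 17 were called lower and 1 higher, of 18 immediate-early genes 16 were tested and 8 called lower, of 28 stress response genes 10 were lower, and of 20 integrin and focal adhesion genes 7 were lower. Of 73 ribosomal protein genes 22 were called higher and 1 lower. These shares stand against 4.5% higher and 6.22% lower over all 7304 genes. F3 fell by 2.03, Ccn2 fell by 1.67 and Ptgs2, the inducible prostaglandin synthase, fell by 1.63 on the log2 scale in that fit, with adjusted p from 5.85e-18 for Ccn2 to 1.31e-14 for F3. Fth1 fell by 1.44 with an adjusted p of 2.87e-13. With all 5 libraries the lowest adjusted p over all genes was 0.9996. Such p-values rest on 1 residual degree of freedom and on a spread shared by genes.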

How the data were processed

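Footprint and input RNA were sequenced from 5 conditions, 10 libraries in all, grouped by label into 3 targeted and 2 control conditions. The authors deposited TPM in 2 tables, 1 for iBMDM and 1 for TAM; per the submitters' processing notes, fastp 0.18.0 and Bowtie2 were used. Genome build, annotation, quantifier and handling of shared reads: not given in the sources used here. Depth cannot be recovered from TPM, so no counting error is stated, and TPM of one gene depends on all others in its library.

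Tables were joined on 21934 symbols, of which 19772 matched the table of gene names and 19910 RefSeq; for 20 repeated symbols the row of highest mean was kept. Values were analysed as log2(TPM + 1), which understates changes of low genes, for 7453 genes with mean footprint and input TPM of at least 5. limma 3.58.1 (R 4.3.3) used a term for the table, an expression trend, two-sided tests and Benjamini-Hochberg adjustment over all genes at 0.05. Translation efficiency pairs the footprint and input libraries of one condition, which the labels take from the same cells. limma was tested on simulated data. Named genes were, per measure and direction, the 10 with the widest gap among shared genes with mean TPM of at least 10, plus up to 3 shared and 3 other members per gene list, without Gm and Rik models, pseudogenes, histone and mitochondrially encoded genes. The comparison, the gene lists, the motifs and the tests were chosen with earlier results of these data known. Macrophage, fibroblast, hepatocyte, T and B cell, neutrophil and endothelial marker lists were summed per library; the last 3 lists summed to at most 7.65 TPM of input in any library. Genes named outside that rule were chosen after their values were seen. Other pseudocounts, filters, scalings, fits and left-out libraries were tried. Amino acid composition was not analysed here. Some members of the lists, counted in them, are not reported here by name.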

Additional observations from a re-analysis of the deposited data

Results flagged for a closer look

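A limma fit with a term for the difference between the tables (the Wdr4cKO change minus the mean guide change) called 1 gene in footprints and 5 in translation efficiency at an adjusted p under 0.05. It had 1 residual degree of freedom, the difference between the 2 guides, and infinite prior degrees of freedom, so the TAM change, from 1 library on each side, has no replicate spread of its own and the p-values assume that it varies like the guides. In footprints the gene was Sap18b, at -6.16 (SE 1.17, adjusted p 0.0012), with a guide change of -1.36 and a TAM change of -7.53; it has a near-identical copy, Sap18, and its level is uncertain. In translation efficiency Dus2, a dihydrouridine synthase of tRNA, differed by 3.71 (adjusted p 0.024), Lyrm9 by 5.96 (adjusted p 6.2e-07), Gm14391 by 6.01 (adjusted p 0.00063), Gm6710 by 4.803 (adjusted p 0.0011) and the pseudogene Rpl9-ps6 by -4.44 (adjusted p 0.00063).

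For the following lists the median change of both guides had the opposite sign to that of Wdr4cKO; the difference was not tested. In footprints, Wdr4cKO was at -0.070 for translation initiation and elongation factors (guides 0.90 and 0.29), at -0.028 for mitochondrial ribosomal proteins (0.20 and 0.17) and at -0.036 for the nuclear-encoded respiratory chain (0.11 and 0.09). It was at -0.29 for ribosome biogenesis factors (1.203 and 0.096), at -0.30 for the proteasome (0.81 and 0.08) and at -0.34 for cytosolic chaperones (1.03 and 0.20). In translation efficiency it was at -0.16 for the proteasome (0.83 and 0.09) and at -0.12 for cytosolic chaperones (1.15 and 0.19). Mitochondrially encoded mRNAs went the other way, with Wdr4cKO at 0.40 in footprints (guides -4.13 and -0.54) and at 0.61 in translation efficiency (guides -3.90 and -0.44).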

How the results depend on the processing

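Depth is unknown and each arm holds 1 library per condition, so the counts rest on single libraries. Genes shared higher and lower in footprints numbered 2 and 6 at a pseudocount of 5, 9 and 25 at a mean TPM of at least 1, 1 and 5 at 20, 56 and 108 in the iBMDM table only, 9 and 31 against the own table's control, and 489 and 925 at any gap. In translation efficiency they numbered 7 and 19, 20 and 82, 6 and 14, 68 and 154, 18 and 86, and 651 and 1255 under the same settings in the same order, and 25 were lower after rescaling to the same median. Without each condition in turn they ranged from 7 to 39 (footprints higher), 24 to 74 (lower), 20 to 51 (efficiency higher) and 48 to 144 (lower). limma called 1 to 783 genes in footprints and 6 to 78 in translation efficiency without one condition, and 1 and 5 in the iBMDM table only; such fits have 1 residual degree of freedom and assume that a lone library varies like the others. Under the other fits, filters, pseudocounts and scalings limma called 0. Footprint and input of a condition come from the same cells; the fit with no replicate block, which ignores that pairing, also called 0 in translation efficiency.

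Footprint medians reversed without WT for translation initiation and elongation factors (range without one condition -0.070 to 0.49), ribosome biogenesis factors (-0.29 to 0.54; -0.0415 without sgWdr4-1) and mitochondrial ribosomal proteins (-0.028 to 0.20). The cause was not tested. Of 395 values of named genes under an alternative, 364 kept direction and call and 31 became called, all under a left-out condition or in the iBMDM table only.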
